A study of Mus musculus with 5 samples.

Results

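The 9 genes described here encode basic helix-loop-helix (bHLH) transcription factors of the neural lineages: Neurog1, Neurog2, Neurog3, Neurod1, Neurod2 and Atoh1 of the proneural and neuronal group, and Olig1, Olig2 and Olig3 of the oligodendrocyte group. They were chosen by name, with no threshold on a measured value but with earlier results of these data known, and all 9 were found by symbol among the 21031 protein-coding genes that could appear in the authors' 6 promoter and whole-gene tables. Their peaks were then read from the authors' 3 peak lists.

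Chromatin immunoprecipitation with sequencing (ChIP-seq) mapped KAP1 and Ring1b in mouse embryonic stem (ES) cells, in 5 libraries with 1 library per group. KAP1 was precipitated from KAP1 fl/fl cells that had received vehicle (ethanol) or 4-hydroxytamoxifen, and Ring1b from Ring1b fl/fl cells that had received vehicle or 4-hydroxytamoxifen. The fifth library was Ring1b from KAP1 fl/fl cells that had received 4-hydroxytamoxifen. In every group the drug or vehicle was given for 24 h and culture went on for 48 h, with tamoxifen kept in the medium of the Ring1b fl/fl cells and left out for the KAP1 fl/fl cells. All groups share homozygous floxed alleles of KAP1 or Ring1b, growth on irradiated mouse embryonic fibroblast feeders and fixation in 1.2% formaldehyde for 10 min. The recombinase that acts on the floxed alleles, the number of clones and the read depths were in none of the sources used here. Each vehicle list was called against the 4-hydroxytamoxifen library of the same line and antibody, so a listed peak is a place with more reads before deletion than after it. KAP1 and Ring1b in vehicle-treated cells were therefore mapped in different lines, and there was no replicate error against which a difference could be set. Peak lists hold no expression values, so neither the ES cell identity nor the loss of KAP1 or Ring1b was checked on marker genes.

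Proneural bHLH factors switch on neuronal genes in neural progenitors by pairing with E proteins and binding the E-box, a short DNA motif. Id proteins capture the E proteins, and Hes and Hey repressors, driven by Notch signalling, hold proneural genes down, so that neighbouring cells do not all become neurons. KAP1, encoded by Trim28, is a corepressor that KRAB zinc finger proteins bring to DNA, and Ring1b, encoded by Rnf2, is the ubiquitin ligase of Polycomb repressive complex 1, which is known in ES cells for occupying CpG-rich promoters of developmental regulators.

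Of the 9 bHLH genes, 6 carried both KAP1 and Ring1b at the promoter, 1 carried KAP1 without Ring1b and 2 carried Ring1b without KAP1 in the authors' deposited tables. The shared genes were Neurog1, Neurog2, Neurog3, Neurod1, Atoh1 and Olig2. Olig1 had KAP1 alone, and Neurod2 and Olig3 had Ring1b alone. Where at least 50% of a peak had to lie inside the promoter window, the count with both proteins fell to 1. KAP1 alone then stood at 6 genes. At Neurog1, Neurog2 and Atoh1 Ring1b covered the whole window, but its peak was too wide to meet that rule, whatever its position. The count with both fell to 2 where equal numbers of top-scoring KAP1 and Ring1b peaks were used, with 6 then at Ring1b alone. A promoter here is the deposited window of 1 kb on each side of the transcript start, and 23.3% of all protein-coding genes had both proteins there. Ring1b lay at 8 of the 9 promoters, against 27.0% of all genes, and KAP1 at 7 of the 9, against 53.0%. The Ring1b count thus stood further from its background than the KAP1 count. Over the whole gene, 7 of the 9 had both proteins, against 27.3% of all genes, because Neurod2 carried a KAP1 peak inside the gene.

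The promoter sequences of 4 of these genes show the range of CpG content, which is the property that Polycomb targets are known for. The 250 bases before the RefSeq transcript start (GRCm38.p6) are given 5′ to 3′ on the strand of the gene, with each CpG in capitals. Neurog1 (chr13:56252181-56252430, minus strand) had both proteins and the most CpGs, Neurod2 (chr11:98329646-98329895, minus strand) and Olig3 (chr10:19356289-19356538, plus strand) had Ring1b without KAP1, and Olig2 (chr16:91225300-91225549, plus strand) had both proteins.
Neurog1: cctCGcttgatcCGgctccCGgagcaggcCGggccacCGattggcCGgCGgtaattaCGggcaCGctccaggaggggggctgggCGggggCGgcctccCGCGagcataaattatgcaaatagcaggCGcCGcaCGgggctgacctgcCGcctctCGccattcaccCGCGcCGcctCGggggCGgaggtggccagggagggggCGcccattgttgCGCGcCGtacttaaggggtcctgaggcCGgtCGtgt
Neurod2: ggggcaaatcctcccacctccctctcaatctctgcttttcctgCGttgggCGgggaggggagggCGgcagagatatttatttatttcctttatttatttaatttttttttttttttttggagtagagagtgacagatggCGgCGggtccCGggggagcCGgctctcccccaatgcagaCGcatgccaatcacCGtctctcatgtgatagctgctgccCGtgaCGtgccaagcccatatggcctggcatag
Olig2: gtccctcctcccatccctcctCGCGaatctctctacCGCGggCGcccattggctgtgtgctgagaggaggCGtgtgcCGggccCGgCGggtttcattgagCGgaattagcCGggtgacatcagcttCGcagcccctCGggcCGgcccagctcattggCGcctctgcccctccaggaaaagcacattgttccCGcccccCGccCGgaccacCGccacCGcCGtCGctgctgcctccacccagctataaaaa
Olig3: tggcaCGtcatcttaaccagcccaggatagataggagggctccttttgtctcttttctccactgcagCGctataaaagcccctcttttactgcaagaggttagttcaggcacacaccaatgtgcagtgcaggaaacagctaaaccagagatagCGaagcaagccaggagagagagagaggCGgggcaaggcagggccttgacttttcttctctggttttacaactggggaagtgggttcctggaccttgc
These stretches hold 29 CpGs for Neurog1, 11 for Neurod2, 22 for Olig2 and 4 for Olig3.

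RefSeq promoter windows, of 250 bases before to 50 bases after the start, were found for 8 of the 9 genes, all but Olig1. Over those 300 bases Neurog1 had 32 CpGs, more than 87.7% of 16853 protein-coding promoters. Neurod1 had 26, Olig2 25, Atoh1 20, Neurog3 19, Neurod2 16, Neurog2 10 and Olig3 4. The median of the 8 was 19.5, against 14 over all promoters, 22 over promoters with both proteins, 18 over those with Ring1b alone, 20 over those with KAP1 alone and 4 over those with neither. In this window Olig3 therefore had as few CpGs as the median of the promoters with neither protein, and only 23.4% of promoters had fewer. The Ring1b summit of Olig3 lay 821 bp inside the gene, outside the window, so CpGs there were not counted. Of the 8 genes only Neurod1 had its promoter Ring1b summit inside the window. GC content ran from 46.0% at Olig3 to 69.3% at Neurog1, with a median of 61.5% against 56.7% over all promoters. The Ring1b peak covered the whole window at 7 of the 8 genes and 99.0% of it at Olig2. The KAP1 peaks covered the whole window at Neurog1, Neurog3, Neurod1, Atoh1 and Olig2, 31.0% of it at Neurog2 and none of it at Neurod2 and Olig3.

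E-boxes, the sites that bHLH dimers bind, were searched in the same windows as the letters CANNTG, which read alike on both strands. Neurod2 had 3, Neurog1, Neurog3, Neurod1 and Olig3 had 1 each, and Neurog2, Atoh1 and Olig2 had 0. Over all promoters of that length 68.5% held at least 1. The form CAGCTG, which also reads alike on both strands and is contained in the general letters, occurred at Neurog3 and in 15.3% of all promoters. CAGATG, searched on both strands and also contained in them, occurred at Neurod2 and in 14.5%. The matches describe letters in this window and nothing was measured here on bHLH binding.

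Each peak has a score that is the authors' own: 10 times the −log10 p from MACS, so that it ranks peaks within 1 list and cannot be compared between the lists. The median score was 116.4 in the Ring1b list of 13516 peaks and 96.15 in the KAP1 list of 82775 peaks. In the Ring1b list 732 peaks are tied at 3100, and peaks with that value cannot be ordered among themselves. Why so many peaks share this value is not known here. Their order against peaks listed above it, up to 3233.1, is therefore uncertain too. A promoter peak here overlaps the window by at least 1 bp, for all genes alike, and its score is that of the whole peak. At Atoh1, Olig2 and Neurod2 the Ring1b summit lay inside the gene beyond the promoter window. At least 1000 was reached at 7 of the 8 bHLH promoters with Ring1b, against 25.1% of all genes with a Ring1b promoter peak. The median Ring1b promoter score was 2627.6 over the 8 genes and 236.7 over the 5681 genes with one. For KAP1 the median was 187.5 over 7 genes, the score of the Neurog2 peak, and 146.7 over 11150 genes, both from whole listed peaks. A KAP1 score of at least 100 was reached at 5 of the 7, against 72.7% of all genes with a KAP1 promoter peak, a share close to that background.

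**Figure D1:**
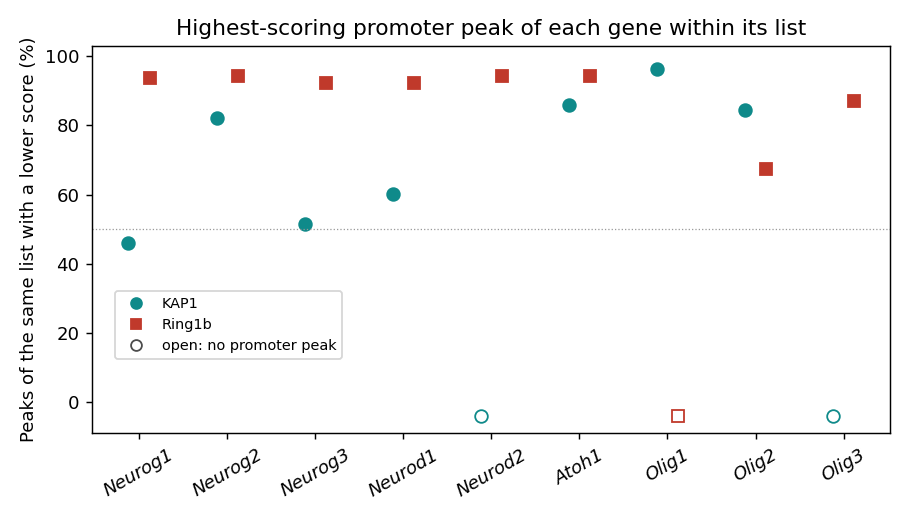
Percentage of peaks in the same list that score lower than the highest-scoring promoter peak of each bHLH gene, for KAP1 (circles) and Ring1b (squares), with open symbols where the promoter holds no peak. Ring1b sits between 87.0% and 94.2% for 7 genes and at 67.3% for Olig2, while KAP1 runs from 46.0% at Neurog1 to 96.3% at Olig1.

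Among the neurogenins, which start neurogenesis in sensory ganglia, cortex and spinal cord and, for Neurog3, make endocrine cells of the pancreas, the Ring1b signal was high and the KAP1 signal varied. Neurog1 (chr13:56250478-56252180, minus strand) had a Ring1b score of 2867.5 and a KAP1 score of 90.23, below the median of the KAP1 list. Neurog2 (chr3:127632733-127635636, plus strand) had 3100 for Ring1b and 187.5 for KAP1, higher than 82.1% of the KAP1 list. Neurog3 (chr10:62133090-62134763, plus strand) had 2387.6 for Ring1b and 98.59 for KAP1, near the middle of its list. All 3 thus scored higher than at least 92.3% of the Ring1b list, whereas their KAP1 peaks scored higher than 46.0% to 82.1% of the KAP1 list. Neurog2 and Neurog3 each carried a further KAP1 peak in the promoter window, with scores of 82.35 and 64.98.

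The promoter Ring1b peak of Neurog1 spanned 4483 bp (chr13:56249752-56254234) and contained the whole gene of 1703 bp and the KAP1 peak of 1016 bp (chr13:56251785-56252800). At Neurog3 the Ring1b peak of 2898 bp (chr10:62131903-62134800) also contained the whole gene, which is 1674 bp long. At Neurog2 a Ring1b peak of 4856 bp (chr3:127630739-127635594) covered 98.6% of the gene. KAP1 covered less of each: 23.3% of Neurog1, 37.3% of Neurog2 and 47.0% of Neurog3.

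Each neurogenin had a second strong Ring1b peak upstream, outside the promoter and the gene. Upstream of Neurog1 it was 5034 bp wide with a score of 3100, above the 2867.5 of the promoter peak itself, and held 2 KAP1 peaks with scores of 52.41 and 156.2. Upstream of Neurog2 it was 4154 bp wide, also at 3100, with KAP1 peaks of 120.2 and 50.07 inside it. Upstream of Neurog3 it was 2731 bp wide with a score of 1115.7, and the KAP1 peaks inside it scored 182.6 and 50.68. The stronger KAP1 peak under the upstream Ring1b peak therefore outscored the promoter KAP1 peak at Neurog1 and Neurog3 but not at Neurog2. Neurog3 also had 3 KAP1 peaks past the end of the gene, with scores of 252.3, 132.6 and 287.0, of which only the first overlapped Ring1b. The highest KAP1 score within 10 kb of Neurog3 was thus at a site without Ring1b.

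Neurod1 and Neurod2 act after the neurogenins in neuronal differentiation, and Neurod1 is also known from pancreatic endocrine cells. Neurod1 (chr2:79452637-79456636, minus strand) had a promoter Ring1b score of 2372.8 over 3348 bp and a promoter KAP1 score of 114.8 over 695 bp. Its strongest KAP1 peak lay inside the gene, 2308 bp past the start, with a score of 266.4, and all of it was under the Ring1b peak. An upstream Ring1b peak of 446.2 held a KAP1 peak of 79.54. Neurod2 (chr11:98325415-98329645, minus strand) had 3100 for Ring1b over 3550 bp (chr11:98326496-98330045) and no KAP1 peak in the promoter window. The nearest KAP1 summit was inside the gene, 1735 bp past the start, in a peak of 761 bp that scored 100.2 and lay wholly under Ring1b. By class, Neurod2 therefore differed from Neurod1 at the promoter and not over the whole gene. The Ring1b summit of Neurod2 lay 2083 bp inside the gene, also outside the promoter window and further in than the KAP1 summit. Ring1b alone at this promoter thus rests on the extent of a wide peak, which covered 70% of the window. The score of 3100 is that of the whole peak. The distant upstream Ring1b peak of Neurod2, with a score of 1253.4, held no KAP1 peak.

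Atoh1, which specifies cerebellar granule neurons, hair cells of the inner ear and secretory cells of the gut, had the widest Ring1b peak of the 9 genes. The gene (chr6:64729125-64731245, plus strand) lay wholly inside a Ring1b peak of 6215 bp (chr6:64727068-64733282) that scored 3100 and ranked 162 by width among the 13516. A second Ring1b peak of 2660 bp (chr6:64733297-64735956) began 2052 bp past the end of the gene. It was listed at 3224.0, rank 6 by listed score and the highest listed within 10 kb of any of the 9 genes. Its order against peaks tied at 3100, such as the promoter peak, is uncertain. KAP1 at Atoh1 had promoter peaks of 209.6 and 85.38 and a peak of 119.4 under the downstream Ring1b peak. All KAP1 peaks within 10 kb of Atoh1 lay inside Ring1b peaks.

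The Olig genes did not share a pattern. Olig2 directs motor neuron and oligodendrocyte fate in the ventral spinal cord, Olig1 works in oligodendrocyte maturation, and Olig3 acts in dorsal progenitors. Olig2 (chr16:91225550-91228677, plus strand) had both proteins, with the lowest promoter Ring1b score of the 8 genes, 251.2 over 2649 bp, and a KAP1 score of 201.2 over 834 bp. Its stronger Ring1b peaks lay upstream: one of 2339 bp with a score of 1214.8 and one of 2308 bp with a score of 899.1. Each of these was overlapped by a KAP1 peak scoring 253.4, of 1672 bp and 1629 bp. At Olig2 both proteins thus scored higher upstream than at the promoter, and 56.4% of the Ring1b-covered sequence within 10 kb was also under KAP1, the highest share of the 8 genes with Ring1b.

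Olig1 (chr16:91269769-91271939, plus strand) lies 41.1 kb past Olig2 on the same chromosome and strand. Its KAP1 peak of 1751 bp (chr16:91269411-91271161) scored 349.0, higher than 96.3% of the KAP1 list and the highest promoter KAP1 score of the 9 genes. No Ring1b peak lay within 10 kb of Olig1, and the nearest, with a score of 265.4, was 36.4 kb away, just past Olig2. Having no Ring1b peak within 10 kb was true of 1 of the 7 bHLH genes with KAP1 at the promoter, and of 39.4% of KAP1 genes of similar length, so Olig1 is the exception among these genes and not among KAP1 genes. Between Olig2 and Olig1 there were 2 KAP1 peaks and 1 Ring1b peak.

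Olig3 (chr10:19356539-19358604, plus strand) showed the opposite. Its Ring1b peak of 2031 bp (chr10:19356106-19358136) scored 1254.6, with further Ring1b peaks of 98.76 upstream and 100.3 downstream. No KAP1 peak lay within 10 kb, and the nearest was 145.2 kb away with a score of 98.07. Absence of KAP1 within 10 kb was found for 1 of the 8 bHLH genes with Ring1b, against 5.78% of genes of similar length with Ring1b at the promoter. Depth limits such a statement: a site without a listed peak is one where none passed the authors' threshold, not one shown to lack the protein.

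**Figure D2:**
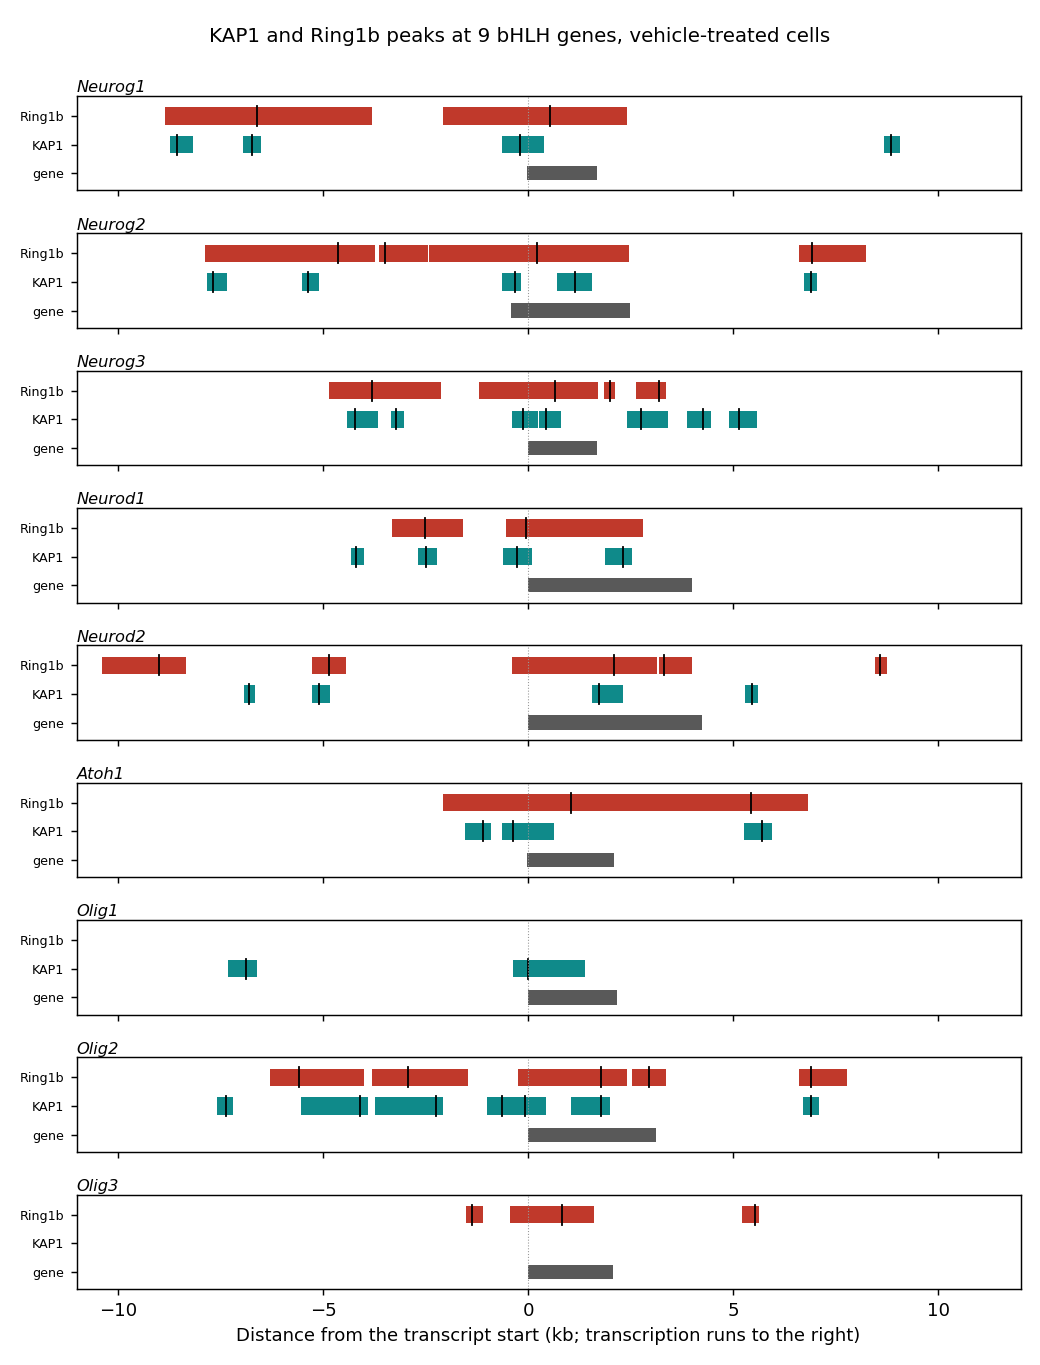
Peaks of Ring1b (upper row) and KAP1 (middle row) around each bHLH gene (grey bar), as distance in kb from the deposited transcript start with transcription to the right, and a black tick at each summit. Ring1b blocks extend over most of each gene except Olig1, KAP1 peaks are narrower, Olig1 has KAP1 only and Olig3 has Ring1b only.

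Across the 9 genes and 10 kb on each side there were 27 Ring1b peaks and 36 KAP1 peaks. Of the 36 KAP1 peaks 26 overlapped Ring1b, against 29.7% of the 3083 KAP1 peaks around genes of similar length with a promoter peak of either protein. Of the 27 Ring1b peaks 18 overlapped KAP1, against 75.1% of the 1004 Ring1b peaks around those genes. The share of KAP1 peaks under Ring1b thus lay above its background, and the share of Ring1b peaks under KAP1 did not. The first background was not matched for Ring1b, which lay at 8 of the 9 bHLH promoters. Of 866 genes of similar length with KAP1 at the promoter, 39.4% had no Ring1b peak within 10 kb. How much of the higher share follows from this was not tested. Outside the promoters and genes there were 17 Ring1b peaks, 6 of them with a score of at least 1000, against 17.3% of such peaks around those genes. At least 2 Ring1b peaks were found within 10 kb of all 8 bHLH genes with Ring1b at the promoter, against 48.9% of genes of similar length (1674 to 4231 bp) with Ring1b at the promoter. All 9 genes stood alone, with no other protein-coding gene within 10 kb, against 35.7% of the 1985 genes of similar length.

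Ring1b covered most of the span of 8 of these genes. The gene span was wholly covered at Neurog1, Neurog3 and Atoh1, and to 98.6% at Neurog2, 95.8% at Olig2, 93.3% at Neurod2, 77.4% at Olig3 and 70.1% at Neurod1. At least 50% of the gene was covered at 8 of the 9, against 9.92% of all genes of similar length. Among the 450 genes of similar length with Ring1b at the promoter the share was 40.7%, against all 8 of the bHLH genes with Ring1b. The median cover was 97.2% over the 8 genes and 36.7% over those 450. KAP1 covered 18.0% to 64.2% of the 8 genes with KAP1, with a median of 30.7% over all 9.

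**Figure D3:**
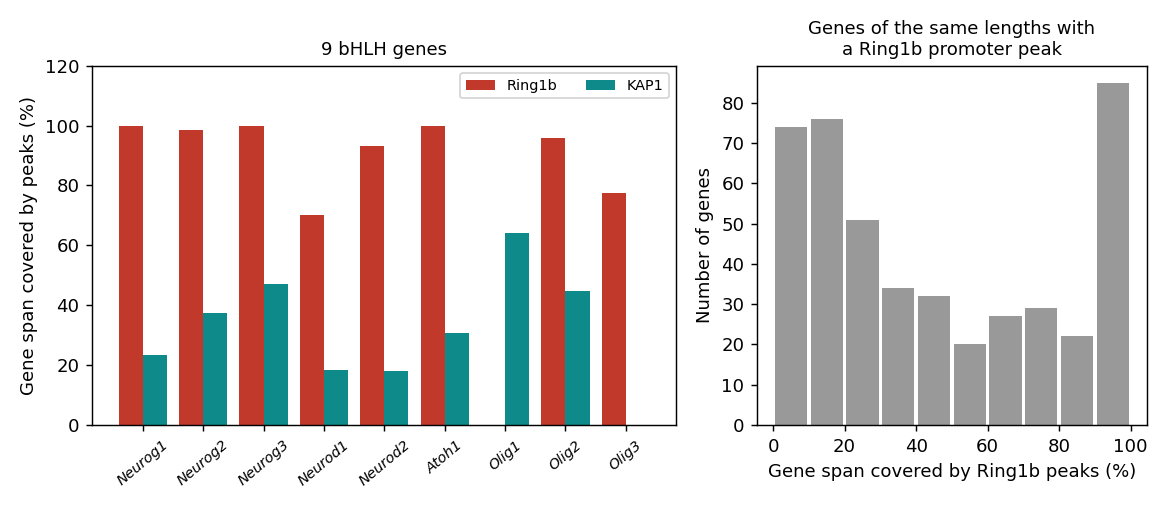
Left, percentage of each bHLH gene's span covered by Ring1b and by KAP1 peaks; right, number of genes of 1674 to 4231 bp with a Ring1b promoter peak in each 10% bin of Ring1b cover. The bHLH genes with Ring1b lie between 70.1% and 100%, in the right part of a distribution that has 85 genes in its highest bin and 74 in its lowest.

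Neighbouring Ring1b peaks were joined where the gap was at most 500 bp. The joined domain was 10334 bp at Neurog2, made of 3 peaks, and 8889 bp at Atoh1, made of 2. It was 4545 bp at Neurog3, 4483 bp at Neurog1, 4400 bp at Neurod2, 3616 bp at Olig2, 3348 bp at Neurod1 and 2031 bp at Olig3. The median of the 8 was 4441.5 bp, against 1079 bp over all genes with Ring1b at the promoter. At least 5 kb was reached by 2 of the 8, Neurog2 and Atoh1, against 4.74% of those genes.

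The summits of the 2 proteins, the points of highest signal in a peak, did not coincide at the shared promoters. At Neurog1 the KAP1 summit was 194 bp upstream of the start and the Ring1b summit 527 bp inside the gene, 721 bp apart. At Neurog3 they were 135 bp upstream and 666 bp inside, at Atoh1 379 bp upstream and 1054 bp inside, and at Olig2 85 bp upstream and 1774 bp inside. At Neurod1 both were upstream, at 260 bp for KAP1 and 59 bp for Ring1b. Neurog2 had the reverse order, with Ring1b 223 bp and KAP1 1133 bp inside the gene, the latter outside the promoter window. Its lower-scoring promoter KAP1 peak, at 82.35, had its summit 326 bp upstream. At Neurog3 the lower-scoring one, at 64.98, had its summit 441 bp inside. The sides at these genes thus depend on the peak taken. By the highest-scoring peaks, KAP1 upstream with Ring1b downstream was found at 4 of 6 shared promoters. The share was 26.7% over all 3879 shared promoters whose strand is known. KAP1 alone was upstream at 5 of 6, against 50.2%, and Ring1b alone was downstream at 5 of 6, against 66.1%.

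The median distance between the summits was 855.5 bp over the 6 genes and 226 bp over all shared promoters. At all 6 the KAP1 summit lay inside a Ring1b peak, against 84.9% of all shared promoters, a count near that background. These distances are between the highest-scoring peaks of each promoter: where the nearest centres of any KAP1 and Ring1b peak within 10 kb were taken in their place, the median was 201.5 bp. The widest Ring1b promoter peaks of the bHLH genes had a median width of 3449 bp against 941 bp over all genes with one, and the part of this width in the summit distance was not tested.

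**Figure D4:**
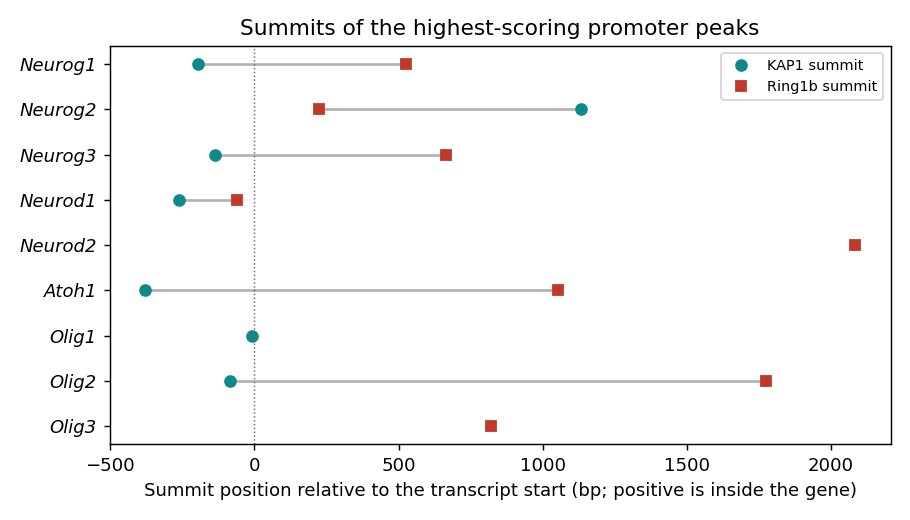
Position of the summit of the highest-scoring KAP1 (circle) and Ring1b (square) promoter peak of each bHLH gene, in bp from the transcript start, with positive values inside the gene and a grey line joining the pair at shared promoters. KAP1 summits lie within 379 bp upstream of the start at all genes with a KAP1 promoter peak except Neurog2, and Ring1b summits run from 59 bp upstream at Neurod1 to 2083 bp inside Neurod2.

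Ring1b in KAP1 fl/fl cells given 4-hydroxytamoxifen was listed at none of the 9 genes. That list of 8928 peaks was called against Ring1b from another line, the 4-hydroxytamoxifen-treated Ring1b fl/fl cells. Its median peak was 158 bp wide, against 587 bp in vehicle-treated Ring1b fl/fl cells. The median score was 58.86 within this list, and scores cannot be compared between the lists. A knockout-list peak lay at the promoter of 0 of the 8 bHLH genes with Ring1b, and of 1.11% of genes of similar length with Ring1b at the promoter. The 0 at the bHLH promoters is thus close to the background. Within 50 kb of the gene such a peak was found for 0 of the 9, against 37.0% of all genes of similar length. Unlike the 1.11%, that share was not restricted to genes with Ring1b at the promoter. It was also not restricted to genes that stand alone within 10 kb, as all 9 bHLH genes do. The nearest knockout-list peak was 59.95 kb from Neurog3, 62.2 kb from Neurog2, 69.4 kb from Atoh1 and 688.9 kb from Neurod2. The median over the 9 genes was 148.2 kb. The control library was the same for this list and the vehicle Ring1b list. Line, precipitated library, drug treatment and the intended KAP1 deletion differ together between them, so their parts in the difference cannot be told apart.

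The wider pathway was read from lists of genes by role. Of 17 other proneural and neuronal bHLH genes, 9 had both proteins at the promoter, against 23.3% of all genes. A further 2 had KAP1 alone, 2 had Ring1b alone and 4 had neither. Of the 11 with Ring1b, 8 scored at least 1000, against 25.1% of all genes with a Ring1b promoter peak. Bhlhe22, Atoh8 and Ptf1a, a factor of pancreatic and cerebellar progenitors, had Ring1b scores of 3100, with KAP1 scores of 247.2, 88.45 and 58.37. The members of the same families therefore did not all carry the proteins: Neurod4 had KAP1 alone and Neurod6 had neither, 2 genes singled out after their values were seen.

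E proteins, the partners of the bHLH factors, had KAP1 at all 3 promoters, against 53.0% of all genes. Ring1b lay at 1 of the 3, Tcf12, with a score of 623, against 27.0% of all genes, a count near that background. All 4 Id genes, which encode the inhibitors of E proteins, had both proteins, with Ring1b scores of 3100 at Id2, 2919.9 at Id3, 2312.9 at Id4 and 145.3 at Id1. Of the 10 Hes and Hey repressors 9 had both and Hes7, a gene of the segmentation clock, had Ring1b alone. Hes5, a Notch target in neural progenitors, had a Ring1b score of 3161.5. All 9 Notch ligands and receptors had both, with Ring1b at 3100 for the ligands Jag1, Dll1 and Dll4 and at 1066.9 for Jag2. Of the 50 genes on the 6 pathway lists, 36 had both proteins, against the 23.3% of all genes given above. Of the 7 neuronal and glial differentiation factors 4 had both, and Nkx2-2, a ventral patterning factor, had Ring1b alone at 3100.

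Pluripotency factors, active in ES cells, had both proteins at 5 of 8 promoters, against 23.3% of all genes, and KAP1 alone at 3, so that KAP1 lay at all 8, against 53.0%. Over the 5 with Ring1b the median Ring1b score was 95.63, against 2627.6 over the 8 bHLH genes with it. The highest was 1931.5 at Esrrb, and 2 of the 5 reached 1000. Pou5f1, the gene of the core factor Oct4, had 444.3 for KAP1 and 88.7 for Ring1b. Feeder fibroblast genes were also read, because feeders shared the dish. Ring1b lay at 7 of 10 promoters, against 27.0% of all genes, and 4 of them scored 3100 (Prrx1, Twist2, Pdgfra and Twist1). Col1a1, Col3a1 and S100a4, named after their values were seen, had neither protein. These counts do not measure the share of feeder chromatin, and its part in the peaks at the bHLH genes was not tested.

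**Figure D5:**
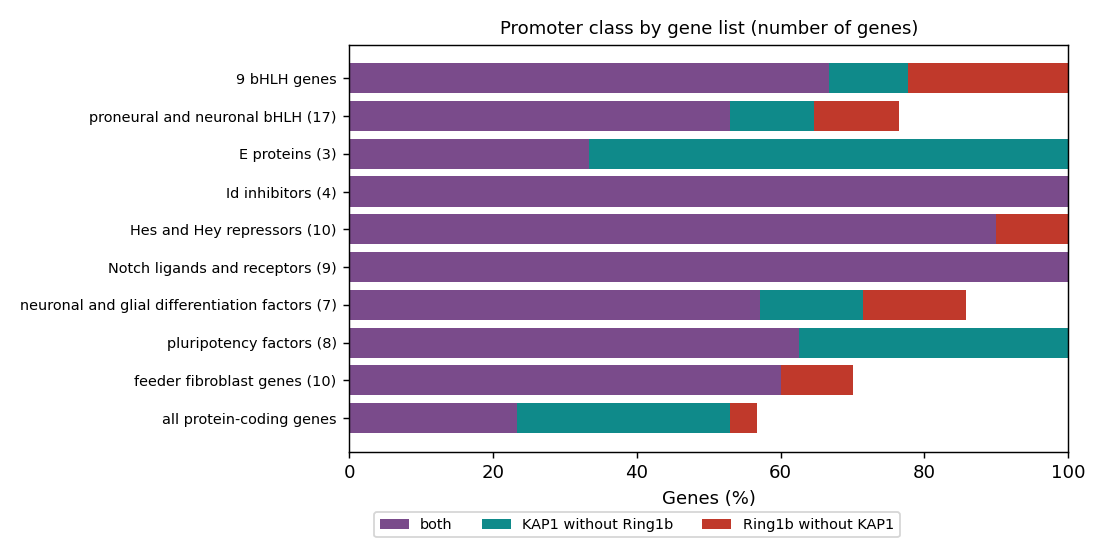
Percentage of genes in each list whose promoter had both proteins, KAP1 without Ring1b or Ring1b without KAP1, with the number of genes in brackets and all protein-coding genes at the bottom. The Id genes and the Notch ligands and receptors have both proteins at every promoter, and over all genes the share with both is 23.3%.

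By promoter peaks, the 3 genes nearest to the median of the bHLH genes were Trim67, Trp73 and Ddn. The measure was the distance to that median over 4 percentiles per gene, those of the highest score and greatest width in the KAP1 and Ring1b lists, with 0 where there was no peak, and it was 2.64, 2.95 and 3.00. The bHLH genes themselves lay 10.1 (Neurod1) to 138.5 (Olig1) from the same median, so the 3 genes are near the centre of the group and need not resemble any of its members. Trim67, of the tripartite motif family, had a KAP1 score of 113.2 and a Ring1b score of 1765.4. Trp73, which encodes the p53 relative p73, had 118 and 3100, and Ddn, which encodes dendrin, had 114.3 and 3100.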

How the data were processed

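Per the submitters' processing notes, the build was mm10 (GRCm38), and the software was MACS 1.4.2, Bowtie2, CASAVA 1.8.2 and bedtools 2.16.2. Per the file headers, peaks of each library were called against another library: vehicle against 4-hydroxytamoxifen for KAP1 and for Ring1b, and Ring1b in KAP1 fl/fl against Ring1b in Ring1b fl/fl cells, both after 4-hydroxytamoxifen (the knockout list). The deposited score of a peak is 10 times the −log10 p, per the file headers of the authors' gene tables, and the lowest in the KAP1 list was 50.01. Replicates were not pooled, and each group has 1 library, so no test was made.

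Gene classes came from the 6 deposited tables, and peaks from the 3 lists with an overlap of at least 1 bp (Python 3.11.15, numpy 2.4.6, matplotlib 3.10.9). Coordinates are written 1-based, and gene spans and sequences are from RefSeq GRCm38.p6. The overlap functions were tested on simulated data. The bHLH genes and the gene lists were chosen with earlier results of these data known. All 9 bHLH genes are named, with at most 4 of each other list, those with the highest Ring1b and then KAP1 promoter scores, and the 3 genes nearest to their median. Neurod4, Neurod6, Col1a1, Col3a1 and S100a4 are named outside this rule, after their values were seen. A gene that meets it is not reported here.

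The Ring1b score of 1000, the cover of 50%, genes of similar length, the joining distance of 500 bp, the summit sides, the overlaps in the flanks and the distance to other genes were chosen after the data were seen. Alternatives varied the window, overlap, score, numbers of peaks and flank.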

Additional observations from a re-analysis of the deposited data

How the results depend on the processing

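Of 41 alternative values, 30 stayed within 1.5 times of the value reported. No paired analysis was possible because each group has 1 library. Ring1b alone at the promoter, reported for 2 genes, fell to 1 with a window of 5 kb and to 1 in the whole-gene tables, where Neurod2 gained KAP1. With at least 50% of the peak required inside the window, 1 gene (Neurog3) had both proteins and 6 had KAP1 alone. Of the others, 1 (Olig3) had Ring1b alone and Neurod2 had neither. Each of the 8 promoter Ring1b peaks is wider than the window. Those of Neurog1, Neurog2 and Atoh1 were too wide to pass at any position, so their outcome was fixed. With equal numbers of top-scoring peaks, 2 genes (Atoh1 and Olig2) had both and 6 had Ring1b alone. Without a flank there were 12 KAP1 and 10 Ring1b peaks, and 76 KAP1 peaks with 50 kb. The median summit distance became 201.5 bp for the nearest centres of peaks. Added after the data were seen, the upper 50% of scores left KAP1 at 6 promoters, with Neurog1 lost, and an upstream kb on the gene's own strand left the whole-gene classes as they were.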

Other observations

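The deposited whole-gene windows treat the strands differently. For 99.8% of 3946 plus-strand genes the window took in the kb upstream of the start, and for 0% of 3891 minus-strand genes. Of the bHLH genes 6 are on the plus strand and 3, Neurog1, Neurod1 and Neurod2, on the minus strand, and 0 changed whole-gene class when the upstream kb was put on the gene's own side.

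In the authors' deposited table of promoters, the KAP1 region of each of the 7 bHLH genes with KAP1 had the summit of a listed peak, but only 3 had its borders. The table gave 108 at Atoh1 where the peak list gave 209.6, 226 at Olig1 where the list gave 349.0, 152 at Neurog2 where the list gave 187.5 and 208 at Olig2 where the list gave 201.2. The median KAP1 promoter score of 187.5 given above uses the listed peaks and would be lower with the scores of that table. The median over all genes was not recalculated with them. The whole-gene table and all Ring1b regions of the 9 genes had the borders of the listed peaks.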
